A study of Mus musculus with 48 samples.

Results

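The 10 genes described here encode secreted signals and the enzymes that make or remove a lipid signal: the chemokines Ccl2, Ccl7, Cxcl1, Cxcl5, Cxcl12 and Cx3cl1, the cytokines Csf1 and Il6, and the prostaglandin enzymes Ptgs2 and Hpgd. Their values were taken by gene symbol, and all 10 were found among the 47480 symbols of each count table. RNA was sequenced from C2C12 cells, an established mouse line of 1 origin that grows as myoblasts and forms multinucleated muscle cells when it differentiates. Myoblasts and cells differentiated for 4 days were stretched in a Flexcell device, which deforms a flexible, collagen-coated plate bottom in cycles and equally in all directions of its plane, and were collected at 1, 3 and 6 h. Non-stretched cells of every time were kept on the same kind of plate, which gave 12 groups of 4 libraries and 48 libraries in all, with no gene altered in any of them. Myoblast replicates 7 and 8 came from experiment B27 and replicates 9 and 10 from experiment B31 (the label of stretched replicate 9 at 1 h reads B231 and was taken as B31), and the differentiated cells were split in the same way between experiments B25 and B28. Only the stretched differentiated cells at 1 h departed from this, with replicate 4 of experiment B17, replicates 7 and 8 of B25 and replicate 9 of B28. The labels call the RNA nuclear, whereas the methods describe extraction from washed cells.

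Chemokines are small secreted proteins that draw leukocytes along a gradient. Ccl2 and Ccl7 act mainly on monocytes through Ccr2, Cxcl1 and Cxcl5 on neutrophils through Cxcr2, Cxcl12 on many stem and blood cells through Cxcr4, and Cx3cl1, which is made as a membrane protein, through Cx3cr1. Csf1 maintains macrophages and Il6 is a cytokine that contracting muscle also releases. Ptgs2, also known as COX-2, is the inducible enzyme that starts prostaglandin synthesis from arachidonic acid, and Hpgd oxidises prostaglandins to inactive products. In injured muscle, monocytes and macrophages recruited by such signals take part in repair, and prostaglandins act on myoblasts themselves.

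Promoter sequences of genes that were called, and of Il6, are shown first for context. RefSeq (GRCm38.p6, the build also called mm10) gave a promoter for 7 of the 10 genes, with none for Ccl2, Ccl7 and Cxcl5. The lines below run from 250 bases before the start of transcription to 30 bases after it, 5′ to 3′ on the strand of the gene, and capitals mark matches to the motifs described after them. Ptgs2 (chr1:150099781-150100060, plus strand) is shown because it rose at 1 h in myoblasts, the earliest call among the 10 genes. Cxcl12 (chr6:117168285-117168564, plus strand) rose in myoblasts and Hpgd (chr8:56294302-56294581, plus strand) fell in both stages. Cxcl1 (chr5:90890995-90891274, plus strand) fell in differentiated cells, and Il6 (chr5:30012864-30013143, plus strand) had the fewest counts of the 10 genes in myoblasts.
Ptgs2: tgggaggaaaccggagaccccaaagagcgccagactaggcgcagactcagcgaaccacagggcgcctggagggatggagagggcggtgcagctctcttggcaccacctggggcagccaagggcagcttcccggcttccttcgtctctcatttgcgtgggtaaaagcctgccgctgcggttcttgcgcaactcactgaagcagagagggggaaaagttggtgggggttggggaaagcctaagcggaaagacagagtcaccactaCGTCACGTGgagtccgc
Cxcl12: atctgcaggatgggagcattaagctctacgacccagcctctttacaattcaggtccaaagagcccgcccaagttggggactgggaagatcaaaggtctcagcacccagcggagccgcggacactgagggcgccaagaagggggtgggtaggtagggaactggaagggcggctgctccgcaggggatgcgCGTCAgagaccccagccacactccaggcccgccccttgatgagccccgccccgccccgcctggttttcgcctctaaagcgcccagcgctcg
Hpgd: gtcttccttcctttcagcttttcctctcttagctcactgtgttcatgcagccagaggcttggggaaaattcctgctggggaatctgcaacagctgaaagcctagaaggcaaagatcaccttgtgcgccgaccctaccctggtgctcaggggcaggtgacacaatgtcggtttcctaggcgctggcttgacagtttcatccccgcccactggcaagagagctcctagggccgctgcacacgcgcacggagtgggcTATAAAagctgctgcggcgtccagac
Cxcl1: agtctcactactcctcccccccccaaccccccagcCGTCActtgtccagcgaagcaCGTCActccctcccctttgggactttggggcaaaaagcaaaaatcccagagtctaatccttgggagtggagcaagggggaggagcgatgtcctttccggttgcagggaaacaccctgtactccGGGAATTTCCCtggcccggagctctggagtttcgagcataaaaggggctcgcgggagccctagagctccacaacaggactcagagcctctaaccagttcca
Il6: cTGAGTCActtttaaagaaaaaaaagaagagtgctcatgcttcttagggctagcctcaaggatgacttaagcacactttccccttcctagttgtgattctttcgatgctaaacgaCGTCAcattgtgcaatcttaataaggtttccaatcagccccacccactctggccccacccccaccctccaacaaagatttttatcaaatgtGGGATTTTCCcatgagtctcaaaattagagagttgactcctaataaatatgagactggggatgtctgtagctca

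Both strands were searched for the NF-kappaB motif, for the AP-1 motif TGANTCA, for the cyclic AMP response element TGACGTCA and its first letters TGACG, for the E-box CACGTG and for the STAT motif TTCNNNGAA, and the plus strand alone for the TATA box TATAAA. The NF-kappaB motif was found in Csf1, Cxcl1 and Il6, and in 4.51% of 32851 RefSeq promoters of the same length. TGACG was found in Cxcl1, Cxcl12, Il6 and Ptgs2 and in 20.8% of all promoters. In Ptgs2 the TGACG match, on the minus strand from position 14 after the start, overlapped a CACGTG match that 7.15% of promoters hold. Il6 had the AP-1 motif (7.81% of promoters). The letters TATAAA (8.32%) were in Cx3cl1 from position -6 and in Hpgd from position 5, relative to the RefSeq start. The annotations differ for Hpgd, whose printed line ends at 56294581, before the gene start of 56294585 in GENCODE. TGACGTCA (1.79%) and TTCNNNGAA (8.3%) were not in the windows of these 7 genes. The windows searched ran slightly further past the start than the lines printed. These are matches of letters in 1 window per gene and no binding was measured.

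The genes also differed in a sequence feature at the other end of the message. The pentamer ATTTA is the core of AU-rich elements, which mark many short-lived mRNAs of cytokines and early response genes. In the longest annotated 3′ untranslated region, Cxcl1 had 7 copies in 592 bases, a density above that of 99.5% of 19925 genes. Il6 had 10 copies in 1668 bases (above 95.4% of genes) and Ptgs2 had 14 in 2445 bases (above 94.9%). Ccl2, Ccl7, Cxcl5 and Hpgd lay between 84.5% and 91.6%, on few copies. Ccl2 had 1 in 275 bases, Ccl7 had 2 in 435, Cxcl5 had 5 in 1111 and Hpgd had 4 in 838. Csf1 (60.9%), Cxcl12 (38.1%) and Cx3cl1 (34.2%) were closer to the median of all genes, which was 1.35 copies per kb. No half-life was measured.

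The libraries held between 48447318 and 77080730 counts. Levels are given as CPM, the count relative to the total of its library, on 1 scale for all 48 libraries (TMM). A difference was called when the quasi-likelihood test of edgeR gave a Benjamini-Hochberg adjusted p-value under 0.05 over all genes of the comparison and its log2 fold change reached 0.58 in either direction. The standard error (SE) given is the absolute log2 fold change divided by the square root of the F statistic of that test. It is derived from the test rather than fitted. The labels do not say whether the libraries of a group came from separate cultures. The methods describe separate samples from independent experiments, and libraries of a group often shared an experiment. The main fits had no term for the experiment, so that p-values measure only the spread between these libraries. Myog is a transcription factor of muscle differentiation. It averaged 1.58 CPM in non-stretched myoblasts and 883 CPM in non-stretched differentiated cells (n = 12 each), as the labels of the stages require. Summed over 8 markers of differentiated muscle, non-stretched groups had medians of 832 to 883 CPM (myoblasts) and 15300 to 16000 CPM (differentiated cells). The 3 myoblast markers (Myod1, Myf5 and Pax7) went the other way in sum. Their medians at 1, 3 and 6 h were 171, 183 and 173 CPM in non-stretched myoblasts. In non-stretched differentiated cells they were 206, 223 and 224 CPM. The summed level of 14 leukocyte and endothelial markers was between 8.45 and 10.7 CPM in the myoblast and between 5.57 and 7.96 CPM in the differentiated libraries. Most of it was Cd14 and Cd68. The macrophage marker Adgre1 and the neutrophil marker S100a9 were at 0 counts in all 48 libraries and the leukocyte marker Ptprc had at most 7 counts. Of the leukocyte and endothelial markers tested, edgeR called 1 higher in stretched myoblasts at 6 h, the endothelial receptor Kdr. It was at 0.203 ± 0.0466 CPM without and 0.48 ± 0.0812 CPM with stretching (log2 1.26, edgeR adjusted p = 0.00285), and its part in the results of that group was not tested. In stretched myoblasts at 3 h, 1 of 7 tested markers of differentiated muscle was called lower, and its part was not tested either. In the 1 h group of stretched differentiated cells, replicate 4 stood apart for several members, and results at this time are given with and without it.

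Over the 6 comparisons of stretched with non-stretched cells, 57 tests of the 10 genes were possible. Il6 was not tested in myoblasts, where it had between 0 and 16 counts in a library and did not pass the filter on low counts. Of the 57 tests, 13 were called, 8 with higher and 5 with lower levels in stretched cells, and they fell on 7 genes. The 10 genes were chosen with earlier results of these data known. Their share of calls therefore cannot be weighed against the background of all genes given below. In myoblasts, 1 of 9 members was called at 1 h, 2 at 3 h and 4 after 6 h. In differentiated cells, 0 of 10 were called at 1 h, 4 at 3 h and 2 after 6 h. The background in the 6 comparisons, as the percentage of all genes called higher and lower, was, for myoblasts, 0.254% and 0.997% at 1 h, 0.459% and 1.25% at 3 h, then 1.35% and 0.823% at 6 h. For differentiated cells it was 0.0901% and 0.18% at 1 h, 0.89% and 0.741% at 3 h and 0.518% and 1.52% at 6 h. Stretched and non-stretched libraries did not overlap for 3, 7 and 6 of the 9 members in myoblasts at 1 h, 3 h and 6 h, against 13.3%, 30.8% and 28.7% of all genes. In differentiated cells they did not overlap for 2, 5 and 4 of the 10 members, against 6.37%, 25.9% and 26.4%. By the adjusted p-value alone, with no fold limit, 24 of the 57 tests passed. In myoblasts these were 2 higher and 0 lower at 1 h (background 1.67% and 4.24% of all genes), 6 and 1 at 3 h (16% and 15.8%), and 4 and 2 at 6 h (14.1% and 13%). In differentiated cells they were 0 and 0 at 1 h (0.193% and 0.47%), 4 and 2 at 3 h (10.8% and 11.4%), and 2 and 1 at 6 h (11.5% and 10.8%).

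**Figure D1:**
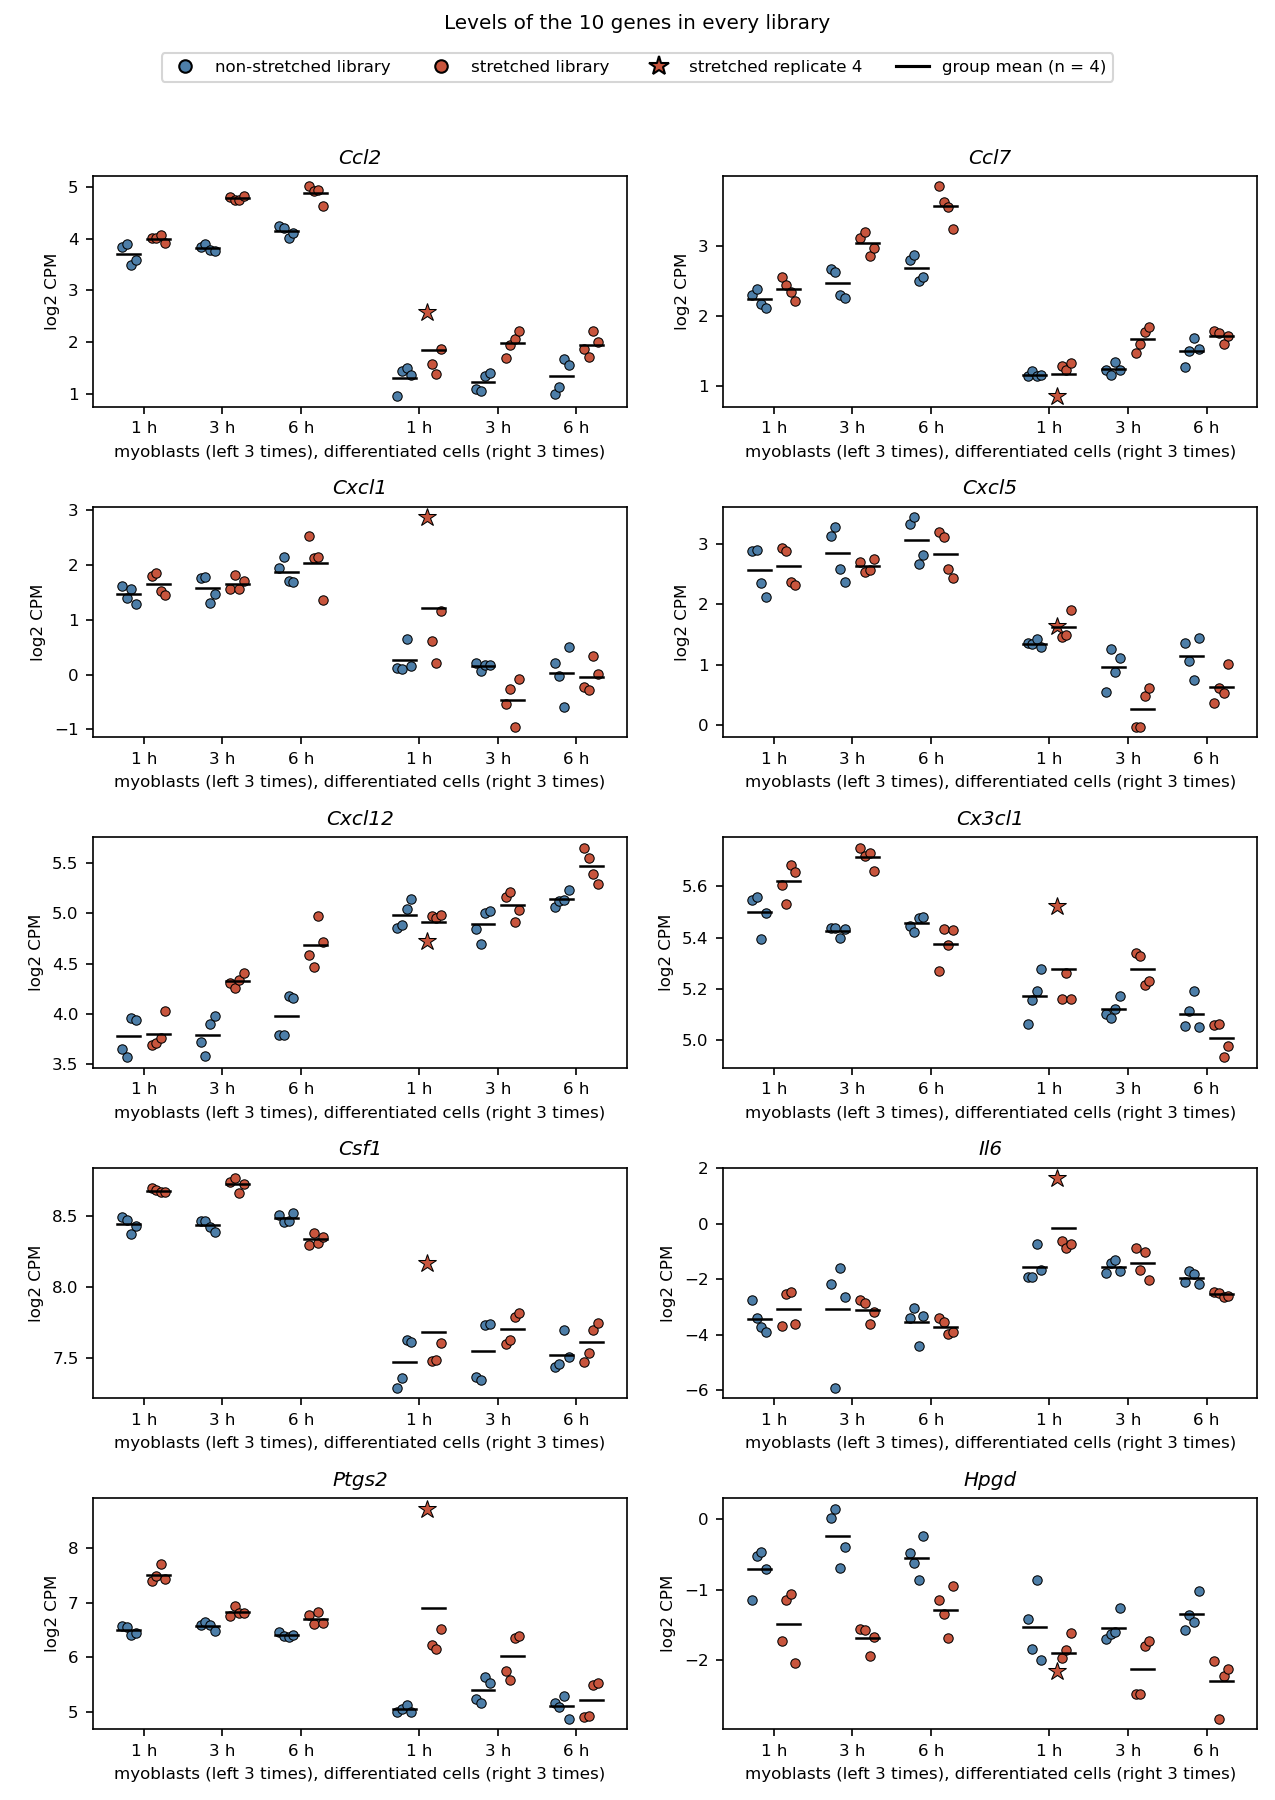
Each panel plots the log2 CPM of 1 gene (vertical axis, a separate scale for each gene) in every library, with myoblasts on the left, differentiated cells on the right and times of 1 h, 3 h and 6 h along the horizontal axis. Blue points are non-stretched and red points stretched libraries, the star is stretched replicate 4 and the black line is the mean of the 4 libraries. At 3 h in myoblasts the stretched libraries of Ccl2 lie between 26.8 and 28.3 CPM, above the non-stretched libraries between 13.6 and 14.8 CPM.

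Ccl2, the monocyte chemoattractant, was upregulated at 3 h and at 6 h in both stages. In myoblasts at 3 h, the non-stretched replicates 7, 8, 9 and 10 stood at 14.4, 14.8, 13.7 and 13.6 CPM and the stretched ones at 28.1, 27, 26.8 and 28.3 CPM. All 4 stretched libraries lay above all 4 non-stretched libraries. The log2 fold change was 0.95 (SE 0.0381, edgeR adjusted p = 2.37e-08), a 1.93-fold rise. At 6 h, the non-stretched myoblasts had 18.9, 18.5, 16.2 and 17.3 CPM and the stretched ones 32.4, 30.5, 30.7 and 24.9 CPM, which again did not overlap. The log2 fold change at 6 h was 0.76 (SE 0.0784, adjusted p = 1.11e-04). At 1 h, Ccl2 averaged 13.2 ± 1.76 CPM without and 16.1 ± 0.7 CPM with stretching (SD, n = 4 each), a log2 fold change of 0.29 that did not pass (SE 0.0839, adjusted p = 0.0772). In these bulk libraries, more cells that express a gene and more RNA per cell cannot be told apart.

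In differentiated cells Ccl2 was upregulated from a lower level. At 3 h it stood at 2.1, 2.05, 2.51 and 2.63 CPM in the non-stretched replicates 7 to 10 and at 3.2, 3.85, 4.14 and 4.65 CPM in the stretched ones. The groups did not overlap, and the log2 fold change was 0.76 (SE 0.129, edgeR adjusted p = 0.00238). At 6 h, it had 1.98, 2.16, 3.19 and 2.93 CPM without and 3.65, 3.26, 4.65 and 3.98 CPM with stretching. All stretched libraries were again the higher ones, with a log2 fold change of 0.59 (SE 0.164, adjusted p = 0.0273), just past the limit of 0.58. This call was lost when replicate 7 or 8 of the non-stretched or 7, 9 or 10 of the stretched cells was left out, with log2 fold changes of 0.48, 0.51, 0.62, 0.49 and 0.57 and adjusted p between 0.05002 and 0.0784. The calls at 3 h in both stages and at 6 h in myoblasts were kept without any single library. Within each experiment the difference in mean log2 CPM was positive at all 3 times and in both stages, and in differentiated cells at 6 h it was 0.73 in B25 and 0.49 in B28.

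Ccl7, the neighbour of Ccl2 on chromosome 11 (chr11:82045712-82047525 and chr11:82035571-82037453, both on the plus strand), was called in myoblasts at 6 h. Myoblasts at 6 h had 6.95, 7.32, 5.6 and 5.85 CPM without and 14.4, 12.3, 11.7 and 9.44 CPM with stretching. The groups were apart, and Ccl7 was upregulated 1.89-fold (log2 0.92, SE 0.126, edgeR adjusted p = 5.21e-04), a call that held without any single library. At 3 h in myoblasts it averaged 5.55 ± 0.836 and 8.21 ± 0.87 CPM (SD, n = 4 each). That log2 fold change of 0.56 had an adjusted p of 9.78e-04 but fell short of the fold limit. It passed both limits when replicate 7 or 8 of the non-stretched or 9 of the stretched cells was left out, with log2 fold changes of 0.62, 0.62 and 0.61. In differentiated cells at 3 h, Ccl7 had 2.31, 2.2, 2.52 and 2.31 CPM without and 2.74, 3.01, 3.37 and 3.55 CPM with stretching. These groups did not overlap either, at a log2 difference of 0.44 (SE 0.102, adjusted p = 0.0116) under the fold limit. At 6 h in differentiated cells the averages were 2.81 ± 0.321 and 3.26 ± 0.191 CPM, and the log2 fold change of 0.21 did not pass (adjusted p = 0.169). Over the 24 myoblast libraries, log2 CPM of Ccl2 and Ccl7 correlated with Pearson's r = 0.923. Over the 24 differentiated libraries r was 0.38. Both are descriptions over libraries that share their groups and experiments.

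Among the CXC chemokines, Cxcl12 was the one that rose. In myoblasts at 6 h it stood at 13.9, 13.8, 18.2 and 17.8 CPM in the non-stretched replicates 7 to 10 and at 24.1, 22.1, 31.4 and 26.3 CPM in the stretched ones. No stretched library fell among the non-stretched ones, and the log2 fold change was 0.72 (SE 0.117, edgeR adjusted p = 0.00128). This call held when any 1 library was left out. At 3 h, myoblasts had 13.2, 11.9, 14.9 and 15.8 CPM without and 19.8, 19.1, 20.1 and 21.2 CPM with stretching, also apart. The log2 fold change of 0.51 (SE 0.0729, adjusted p = 1.84e-04) was under the fold limit and reached 0.58, past it, without non-stretched replicate 10. At 1 h the averages were 13.8 ± 1.91 and 14 ± 1.58 CPM. In differentiated cells at 6 h, Cxcl12 had 33.4, 35, 35 and 37.6 CPM without and 50.3, 46.8, 42.1 and 39.2 CPM with stretching. Every stretched library was the higher one, but the log2 difference of 0.34 (SE 0.0713, adjusted p = 0.00789) did not reach the fold limit. It was 0.51 within experiment B25 and 0.16 within B28.

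The neutrophil chemokines Cxcl1 and Cxcl5 were downregulated in differentiated cells at 3 h and were not called in myoblasts. Cxcl1 stood at 1.13, 1.02, 1.11 and 1.11 CPM without and 0.669, 0.818, 0.501 and 0.934 CPM with stretching, between 37 and 77 counts in a library. The groups did not overlap (log2 -0.60, SE 0.182, edgeR adjusted p = 0.0377). The call was lost with the replicate number as a block (-0.61, adjusted p = 0.0517) and in the fit over all 24 libraries of the stage (-0.60, adjusted p = 0.393). It was also lost without replicate 7, 8, 9 or 10 of the non-stretched or 7 or 9 of the stretched cells, where the log2 fold change was between -0.63 and -0.44 and the adjusted p between 0.0604 and 0.0929. Cxcl5 had 1.45, 2.39, 1.83 and 2.16 CPM without and 0.962, 0.965, 1.38 and 1.51 CPM with stretching. Stretched replicate 10 lay above non-stretched replicate 7, so the groups overlapped, at a log2 fold change of -0.70 (SE 0.193, adjusted p = 0.0249). That call was lost without replicate 8 or 10 of the non-stretched or 7 or 8 of the stretched cells (log2 between -0.65 and -0.60, adjusted p between 0.0604 and 0.0716). Within experiments B25 and B28 the log2 difference was -0.53 and -0.68 for Cxcl1 and -0.94 and -0.46 for Cxcl5.

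At the other times Cxcl1 and Cxcl5 were not called. In differentiated cells at 6 h, Cxcl5 averaged 2.24 ± 0.474 CPM without and 1.55 ± 0.31 CPM with stretching, a log2 difference of -0.53 (edgeR adjusted p = 0.0613). It was called lower without non-stretched replicate 9 (log2 -0.65, adjusted p = 0.0187) or stretched replicate 10 (log2 -0.68, adjusted p = 0.03). Cxcl1 was at 1.04 ± 0.317 and 0.97 ± 0.202 CPM at that time. In myoblasts the log2 differences of Cxcl1 were 0.19, 0.06 and 0.24 from the first to the last time, those of Cxcl5 0.04, -0.27 and -0.21. The experiments did not go the same way for Cxcl5 in myoblasts at 3 h, where its difference was -0.59 within B27 and 0.17 within B31.

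Cx3cl1, the membrane-bound chemokine, and Csf1, the macrophage growth factor, differed by small amounts in myoblasts that passed the adjusted p-value but not the fold limit. Csf1 had between 331 and 360 CPM in the non-stretched and between 406 and 414 CPM in the stretched myoblasts at 1 h. These ranges did not overlap, and the log2 difference was 0.23 (SE 0.0327, edgeR adjusted p = 0.00163). At 3 h the ranges were 335 to 353 and 404 to 434 CPM (log2 0.28, adjusted p = 1.19e-05), and at 6 h the order turned, with 350 to 367 CPM without and 314 to 334 CPM with stretching (log2 -0.13, adjusted p = 0.00489). Cx3cl1 was at 42.2 to 43.3 CPM without and 50.6 to 53.9 CPM with stretching in myoblasts at 3 h, again apart (log2 0.28, SE 0.0263, adjusted p = 1.06e-05). In differentiated cells at 3 h it was at 34 to 36 and 37.1 to 40.4 CPM (log2 0.16, adjusted p = 0.0139). Csf1 in differentiated cells did not pass at 3 h or 6 h (log2 0.15 and 0.09, adjusted p = 0.294 and 0.426). In the 24 myoblast libraries the log2 CPM of Cx3cl1 and Csf1 had r = 0.914, a description like that of Ccl2 and Ccl7. In the 24 differentiated libraries r was 0.515.

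Il6 had too few counts for a statement in myoblasts. Its 24 myoblast libraries held between 0 and 16 counts, with averages between 0.0608 and 0.165 CPM over the 6 groups. In differentiated cells it had between 8 and 39 counts in 23 libraries and 163 in stretched replicate 4 at 1 h. At 1 h its averages were 0.343 ± 0.159 CPM without and 1.21 ± 1.26 CPM with stretching (SD, n = 4 each), and the log2 difference of 1.77 did not pass (SE 0.634, edgeR adjusted p = 0.378). Without replicate 4 the difference was 0.73 (adjusted p = 0.535). At 6 h the stretched libraries, at 0.145 to 0.165 CPM or 8 to 10 counts, all lay below the non-stretched ones at 0.207 to 0.29 CPM or 12 to 17 counts, with a log2 difference of -0.66 (adjusted p = 0.0907).

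**Figure D2:**
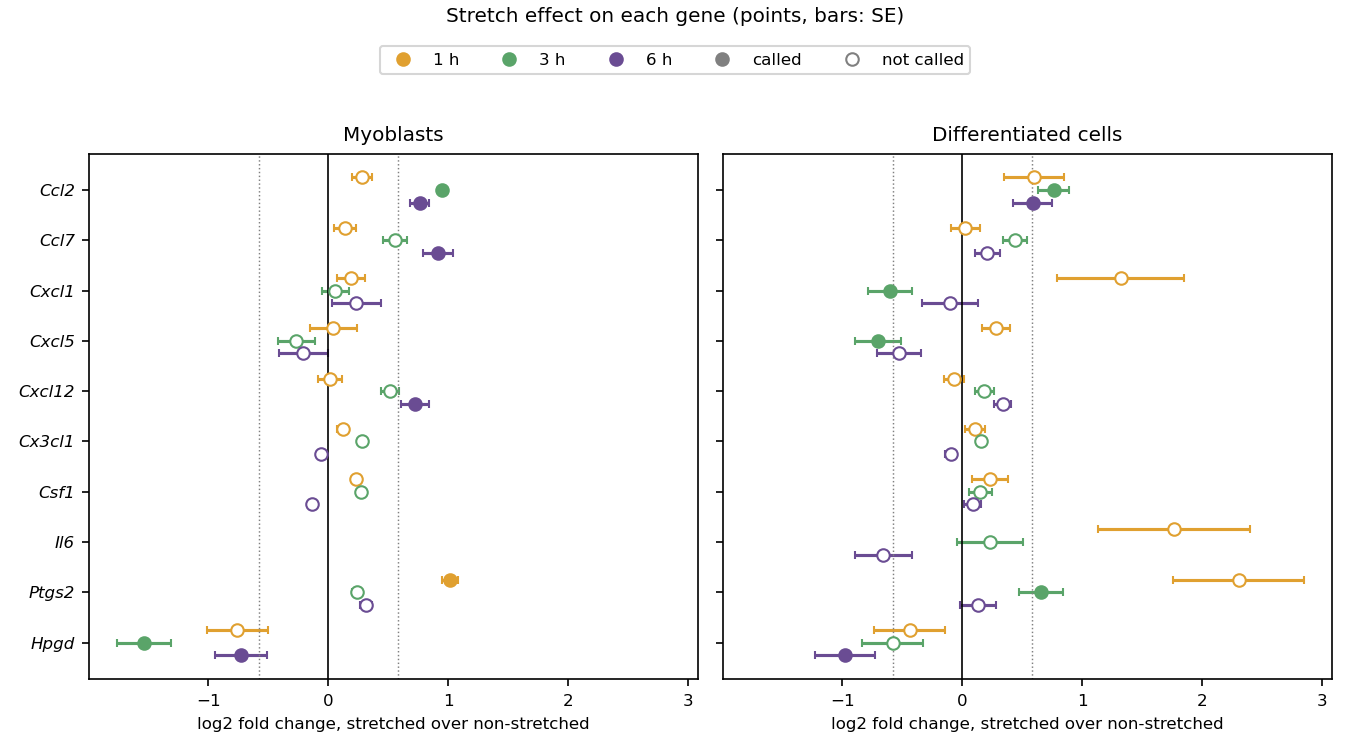
The horizontal axis is the log2 fold change of stretched over non-stretched cells for the 10 genes on the vertical axis, with myoblasts in the left and differentiated cells in the right panel. Colours stand for times, bars for the standard error, filled points for calls and dotted lines for the fold limit of 0.58 in each direction. Ptgs2 has a filled point at 1.01 in myoblasts at 1 h, and the open points of Ptgs2, Il6 and Cxcl1 in differentiated cells at 1 h, at 2.31, 1.77 and 1.32, carry the longest bars.

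Ptgs2, the inducible cyclooxygenase, rose at 1 h in myoblasts. Its levels there were 95, 94.3, 84.9 and 86.8 CPM in the non-stretched replicates 7 to 10 and 169, 179, 209 and 172 CPM in the stretched ones. The lowest stretched library was far above the highest non-stretched library, and the gene was upregulated 2.02-fold (log2 1.01, SE 0.0657, edgeR adjusted p = 1.09e-05). At 3 h the values were 96, 101, 95.8 and 89.6 CPM without and 108, 122, 112 and 112 CPM with stretching. At 6 h they were 88.4, 84.3, 83.2 and 85 CPM and 109, 97.4, 113 and 99.1 CPM. The stretched libraries were still the higher ones at both times, with log2 differences of 0.24 (adjusted p = 6.11e-04) and 0.32 (adjusted p = 0.0012) under the fold limit. Within experiments B27 and B31 the difference at 1 h was 0.88 and 1.14.

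In differentiated cells at 1 h, Ptgs2 had 31.9, 33.4, 35.2 and 32.1 CPM in the non-stretched replicates 7 to 10. In the stretched cells, replicates 4, 7, 8 and 9 had 420, 74.8, 71.1 and 91.9 CPM. All 4 stretched libraries lay above the non-stretched ones, and replicate 4 was 5.29 times the mean of the other 3. With all 8 libraries the log2 fold change of 2.31 did not pass (SE 0.547, edgeR adjusted p = 0.116). It passed with no filter on low counts (2.30, adjusted p = 0.0389) and over all 24 libraries of the stage (2.31, adjusted p = 9.286e-04). In the fits with a term for the experiment or for the replicate number, in which replicate 4 has no non-stretched partner, it passed at 1.28 (adjusted p = 5.922e-06) and 1.24 (adjusted p = 7.588e-05). Without replicate 4 it was 1.26 (SE 0.0836, adjusted p = 1.15e-04), a 2.39-fold rise, and Ptgs2 was then the 1 member called among 0.356% of 15734 genes. The difference was 1.16 within experiment B25 and 1.45 within B28, which has 1 stretched library at this time.

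At 3 h in differentiated cells, Ptgs2 stood at 37.7, 35.9, 50.2 and 45.9 CPM without and 54, 47.8, 82 and 84.2 CPM with stretching. Stretched replicate 8 lay below non-stretched replicate 9, while within each experiment all stretched libraries were the higher ones. The gene was called (log2 0.66, SE 0.18, edgeR adjusted p = 0.0249), with a difference of 0.47 in B25 and 0.79 in B28. The call was lost without replicate 7 or 8 of the non-stretched or 9 or 10 of the stretched cells, with log2 fold changes of 0.61, 0.59, 0.54 and 0.53 and adjusted p between 0.0606 and 0.0694, and over all 24 libraries of the stage (0.66, adjusted p = 0.272). At 6 h the values were 35.7, 34.2, 39.3 and 29.4 CPM and 30, 30.5, 45.1 and 46.5 CPM. Stretched cells were lower within B25 (-0.21) and higher within B28 (0.43), and the pooled difference of 0.13 did not pass (adjusted p = 0.562).

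Hpgd, the enzyme that inactivates prostaglandins, was downregulated in both stages at low levels, between 7 and 66 counts in a library. Myoblasts at 3 h had 0.993, 1.09, 0.604 and 0.743 CPM without and 0.324, 0.32, 0.245 and 0.298 CPM with stretching, so that no stretched library reached a non-stretched one. The log2 fold change was -1.54 (SE 0.226, edgeR adjusted p = 2.42e-04), a 2.9-fold lower level, and it was called without any single library. At 6 h, myoblasts had 0.7, 0.635, 0.534 and 0.836 CPM without and 0.438, 0.376, 0.295 and 0.501 CPM with stretching, also apart (log2 -0.73, SE 0.213, adjusted p = 0.0262). That call was lost without replicate 7 or 10 of the non-stretched or 8 or 9 of the stretched cells, with log2 fold changes of -0.71, -0.61, -0.69 and -0.60 and adjusted p between 0.0535 and 0.0807. In differentiated cells at 6 h, Hpgd had 0.321, 0.375, 0.347 and 0.478 CPM without and 0.231, 0.125, 0.199 and 0.214 CPM with stretching. The groups did not overlap (log2 -0.98, SE 0.25, adjusted p = 0.0188), and the call was lost without non-stretched replicate 10 (log2 -0.85, adjusted p = 0.0548). DESeq2 gave Hpgd no adjusted p-value in that comparison and so did not call it. In the remaining comparisons, the log2 differences of Hpgd were -0.76 in myoblasts at 1 h (adjusted p = 0.123) and -0.44 and -0.58 in differentiated cells at 1 h and 3 h (adjusted p = 0.791 and 0.133).

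At 1 h in differentiated cells, edgeR called 0 of the 10 genes with all 8 libraries and DESeq2 also called 0, while 5 genes had an unadjusted p-value under 0.05 (Ptgs2, Cxcl1, Il6, Ccl2 and Cxcl5), as did 1386 of all 15538 genes tested. DESeq2 gave Ptgs2 no adjusted p-value there. Replicate 4, the only library of its experiment, was the highest library of Ptgs2, Il6, Cxcl1, Ccl2, Csf1 and Cx3cl1 in its group, at 5.29, 5.33, 4.49, 1.96, 1.55 and 1.26 times the mean of the other 3. For Cxcl12, Hpgd and Ccl7 it was the lowest, at 0.84, 0.77 and 0.741 times that mean, and for Cxcl5 it lay at that mean. Cxcl1 had 1.07, 1.05, 1.56 and 1.09 CPM in the non-stretched cells at this time, 7.26 CPM in stretched replicate 4 and 1.51, 1.13 and 2.21 CPM in the other stretched replicates. Its log2 difference was 1.32 with and 0.43 without replicate 4 (adjusted p = 0.467 and 0.774). Ccl2 moved from 0.60 to 0.29 when this library was left out (adjusted p = 0.496 and 0.762). Experiment B17 has no non-stretched library, so the difference of replicate 4 from the others and its experiment cannot be told apart.

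**Figure D3:**
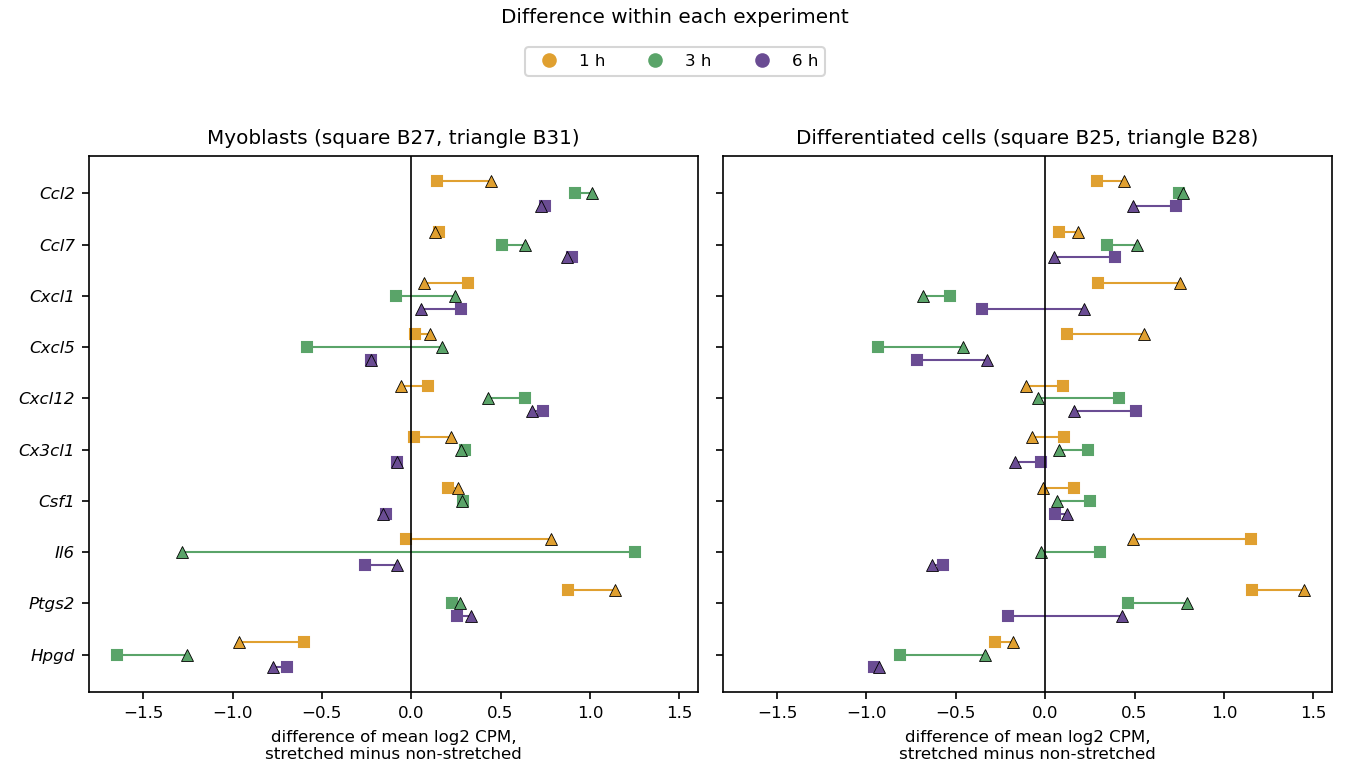
The horizontal axis is the difference of mean log2 CPM, stretched minus non-stretched, within each experiment for the 10 genes on the vertical axis, with myoblasts in the left and differentiated cells in the right panel. Squares and triangles are the 2 experiments of a stage, joined by a line, and colours stand for times. Ccl2 and Ccl7 lie to the right of 0 in every experiment and time, whereas Ptgs2 in differentiated cells at 6 h lies at -0.21 in B25 and 0.43 in B28.

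The effect of stretching was compared between times with an interaction term over the 24 libraries of a stage. In myoblasts, the effect on Ccl2 was larger at 3 h than at 1 h by 0.66 on the log2 scale (SE 0.111, edgeR adjusted p = 2.39e-04), and that on Ptgs2 was smaller by 0.78 (difference -0.78, SE 0.084, adjusted p = 9.95e-07). Among all genes, 0.791% were called with a higher and 0.625% with a lower (more negative) effect at 3 h. From 1 h to 6 h, the effects on Ccl7 (0.77, adjusted p = 0.00205) and Cxcl12 (0.71, adjusted p = 0.00248) were larger and that on Ptgs2 was smaller (-0.70, adjusted p = 2.36e-06), against 2.4% and 0.765% of all genes. These calls in myoblasts were kept without any single library. The effects on Ccl2 (0.48), Csf1 (-0.37) and Cx3cl1 (-0.18) differed between 6 h and 1 h by the adjusted p-value but not by 0.58. By that p-value alone, 1 member had a higher and 1 a lower effect at 3 h (background 5.37% and 5.54%). At 6 h, 3 had a higher and 3 a lower effect (11.6% and 9.42%).

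In differentiated cells, the effect on Cxcl5 was more negative at 3 h than at 1 h by 0.99 (SE 0.251, edgeR adjusted p = 0.0207), against 0.387% of all genes called with such a shift and 0.461% with the opposite one. The call was lost without non-stretched replicate 8 at 3 h (-0.88, adjusted p = 0.0584) or stretched replicate 7 at 3 h (-0.90, adjusted p = 0.0545). At 6 h against 1 h the effects on Ptgs2 (-2.18, adjusted p = 0.0129), Il6 (-2.43, adjusted p = 0.0395) and Cxcl5 (-0.82, adjusted p = 0.033) were lower, against 1.35% of all genes called lower and 1.15% higher. Without replicate 4 these were -1.13 (adjusted p = 0.0037), -1.39 (adjusted p = 0.0279) and -0.81 (adjusted p = 0.036). The call of Il6 was lost without non-stretched replicate 7, 8 or 10 at 1 h or any of the 8 libraries at 6 h (-2.50 to -2.30, adjusted p between 0.0519 and 0.0802). That of Cxcl5 was lost without replicate 7, 8 or 10 of the non-stretched or 9 of the stretched cells at 1 h, or without replicate 7 or 10 of the non-stretched or 7, 8 or 9 of the stretched cells at 6 h (-0.82 to -0.71, adjusted p between 0.0517 and 0.0775). By the adjusted p-value alone, Cxcl12 was added with a larger effect at 6 h (0.40, background 6.73% higher and 5.13% lower), and no member was added at 3 h (2.72% and 2.43%). For Ptgs2 at 3 h against 1 h, the difference of -1.65 did not pass (adjusted p = 0.0882), nor did that of -0.60 without replicate 4 (adjusted p = 0.151). It passed without stretched replicate 7 or 8 at 1 h (-1.89 and -1.91, adjusted p = 0.0408 and 0.035), with the experiment as a covariate (-0.66, adjusted p = 0.012) and with the replicate block (-0.65, adjusted p = 0.021). Cxcl1 at 3 h against 1 h (-1.93, adjusted p = 0.0575) passed without the same libraries (-2.15 and -2.21, adjusted p = 0.0315 and 0.0143), with DESeq2 (-1.94, adjusted p = 0.00861), with the covariate (-1.06, adjusted p = 0.0344) and with the block (-1.07, adjusted p = 0.0481). At 6 h against 1 h (-1.43, adjusted p = 0.114) it passed without stretched replicate 8 at 1 h (-1.72, adjusted p = 0.0381).

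Whether stretching acted differently in the stages was tested over the 16 libraries of a time. At 6 h, the effect on Ccl7 was smaller in differentiated cells than in myoblasts, by a difference of -0.71 (SE 0.177, edgeR adjusted p = 0.0281), and 0.517% of all genes were called in this direction and 0.123% in the other. The call was lost when any of 7 libraries was left out, with differences between -0.71 and -0.60 and adjusted p between 0.0506 and 0.0621. These were non-stretched replicates 9 and 10 and stretched replicate 7 of the myoblasts, and non-stretched replicates 8 and 10 and stretched replicates 9 and 10 of the differentiated cells. At 3 h, edgeR and DESeq2 called 0 members, and edgeR called 0.222% and 0.0308% of all genes higher and lower. At this time 4 members had an unadjusted edgeR p-value under 0.05, as did 2189 of all 16252 genes tested. The differences there were -0.67 for Cxcl1 (adjusted p = 0.138) and -0.45 for Cxcl5 (adjusted p = 0.53), so the calls of these genes in differentiated cells and their absence in myoblasts were not shown to differ. At 1 h, edgeR called 0 of 16299 genes and DESeq2 called 6 higher and 1 lower. An unadjusted edgeR p-value under 0.05 was found for 705 of the 16299 genes, a number that is not evidence of a difference. Ptgs2 was the member with an unadjusted p-value under 0.05, at a difference of 1.29 with (SE 0.58) and 0.24 without replicate 4 (SE 0.114).

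Without stretching, 8 of the 10 genes had levels in the 12 myoblast libraries that did not overlap those in the 12 differentiated libraries, 7 with higher and 1 with lower levels in myoblasts. Among all genes, 28.8% were higher in every myoblast library and 33.3% in every differentiated one. Ccl2 averaged 15 ± 2.35 CPM in the myoblasts but 2.46 ± 0.414 CPM after differentiation (SD, n = 12 each), a ratio of 6.1, the largest among the 8. The ratios were 3.28 for Cxcl5, 2.82 for Cxcl1, 2.46 for Ptgs2, 2.27 for Ccl7, 1.9 for Csf1 and 1.26 for Cx3cl1. Cxcl12 was the exception, at 14.6 ± 2.09 CPM in the myoblasts but 32.2 ± 3.38 CPM after differentiation, 2.21 times higher. Il6 (0.106 and 0.305 CPM) and Hpgd (0.713 and 0.352 CPM) overlapped. The stages came from different experiments, so stage and experiment cannot be told apart here.

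**Figure D4:**
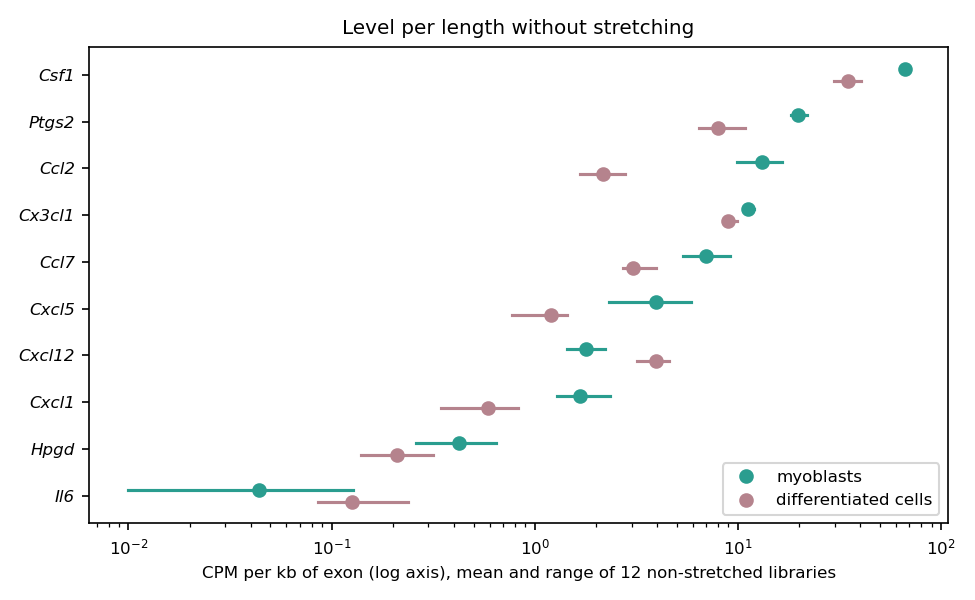
The horizontal axis, on a log scale, is the level of each gene without stretching in CPM per kb of exon, with points for the mean and lines for the range of the 12 non-stretched libraries of each stage. Csf1 is at the top, at 66.4 in myoblasts and 34.9 in differentiated cells, and Il6 at the bottom, at 0.0438 and 0.126, where the lowest myoblast library is at 0 and its line is cut at the left edge.

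Per length of exon, Csf1 had the highest level of the 10 genes in both stages, at 66.4 CPM per kb (62.6 to 69.5) in myoblasts and 34.9 (29.7 to 40.5) in differentiated cells. In myoblasts it was followed by Ptgs2 at 19.7 (18.2 to 22), Ccl2 at 13.2 (9.89 to 16.6) and Cx3cl1 at 11.2 (10.7 to 12), of which the last 2 overlapped. Ccl7 at 6.95 (5.39 to 9.13) and Cxcl5 at 3.95 (2.33 to 5.86) overlapped, as did Cxcl12 at 1.78 (1.45 to 2.22) and Cxcl1 at 1.67 (1.29 to 2.34). Hpgd at 0.424 (0.26 to 0.648) and Il6 at 0.0438 (0 to 0.128) were the lowest and did not overlap. In differentiated cells Cx3cl1 at 8.92 (8.44 to 9.88) and Ptgs2 at 8.02 (6.42 to 10.9) overlapped, as did Cxcl12 at 3.94 (3.18 to 4.59) and Ccl7 at 3.06 (2.72 to 3.96), and Ccl7 and Ccl2 at 2.16 (1.68 to 2.8). Cxcl5 at 1.2 (0.776 to 1.45) and Cxcl1 at 0.592 (0.345 to 0.831) overlapped, and Hpgd at 0.209 (0.139 to 0.317) and Il6 at 0.126 (0.0853 to 0.238) CPM per kb overlapped below them.

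The receptors of these signals were measured in the same libraries. Transcripts of the leukocyte receptors were scarce, with at most 3 counts in any library for Ccr2 (the receptor of Ccl2 and Ccl7), 5 for Cxcr2 (of Cxcl1 and Cxcl5) and 4 for Cx3cr1. Csf1r, the receptor of Csf1, had between 1 and 24 counts. Cxcr4, the receptor of Cxcl12, averaged 14.9 CPM in non-stretched myoblasts and 42.8 CPM in non-stretched differentiated cells, and the ranges did not overlap. It was lower in stretched myoblasts at 1 h, at 10.3 ± 0.621 against 13.7 ± 1 CPM (log2 -0.41, edgeR adjusted p = 0.00304), and higher at 6 h, at 18 ± 1.49 against 15 ± 1.08 CPM (log2 0.28, adjusted p = 0.0124), neither past the fold limit. Ackr3, which also binds Cxcl12, was at 68.7 CPM in non-stretched myoblasts and 40.8 CPM in non-stretched differentiated cells, and its log2 differences lay between -0.17 and 0.11. The Il6 receptor subunits Il6ra (16.6 and 10 CPM) and Il6st (159 and 284 CPM) were present in both stages, and their log2 differences lay between -0.24 and 0.23.

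Of the prostaglandin E2 receptors, Ptger2 and Ptger3 had at most 3 and 4 counts in a library. Ptger4 was upregulated in stretched differentiated cells at 1 h, at 38.3 ± 9.12 CPM against 21.9 ± 1.36 CPM (log2 0.80, SE 0.136, edgeR adjusted p = 0.0325). Stretched libraries ranged from 33.4 to 52 CPM and non-stretched ones from 20.7 to 23.4 CPM, and 15.3% of the exon bases of Ptger4 are overlapped on the other strand by Gm15937. The call was lost when any of 6 libraries was left out, non-stretched replicates 7, 8, 9 and 10 and stretched replicates 7 and 8, with log2 fold changes between 0.78 and 0.87 and adjusted p between 0.0803 and 0.144. Without stretched replicate 4 it was 0.62 (adjusted p = 5.82e-04). In myoblasts at 1 h Ptger4 was at 26.9 ± 0.96 and 33.3 ± 1.58 CPM (log2 0.31, adjusted p = 0.001, under the fold limit).

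Ptgfr, the receptor of prostaglandin F2alpha, was downregulated in 3 comparisons. In differentiated cells it averaged 3.23 ± 0.335 CPM without and 1.83 ± 0.0741 CPM with stretching at 3 h, and 3.72 ± 0.516 and 1.92 ± 0.24 CPM at 6 h (SD, n = 4 each). The groups did not overlap at either time, with log2 fold changes of -0.82 (SE 0.0984, edgeR adjusted p = 4.44e-04) and -0.96 (SE 0.129, adjusted p = 0.00107). In myoblasts at 3 h it was at 0.704 ± 0.243 and 0.346 ± 0.0367 CPM, or 18 to 51 counts, with overlapping groups (log2 -1.02, adjusted p = 0.0112). These 3 calls were kept without any single library. The effect at 1 h in differentiated cells was -0.21 (adjusted p = 0.854).

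The members belong to larger families, of which 129 further genes in 6 lists were looked at. Of these, 57, 58 and 55 were tested in myoblasts in the order of the times, with 67, 67 and 68 tested in differentiated cells. In myoblasts edgeR called 0 at 1 h, 1 higher and 3 lower at 3 h, and 2 higher and 0 lower at 6 h. At 1 h in myoblasts, 10 had an unadjusted p-value under 0.05, as did 2835 of all 14938 genes tested, and DESeq2 called 0. In differentiated cells edgeR called 1 higher at 1 h, 2 higher and 3 lower at 3 h, and 0 higher and 2 lower at 6 h. The percentages of all genes called were those given above for the members. These lists too were chosen with earlier results of these data known. DESeq2 called fewer at 3 h, with 1 higher and 1 lower in each stage, and it gave no adjusted p-value to the others that edgeR called then (Ccr10 in both stages, Il12a in myoblasts, and Xcr1 and Csf2rb in differentiated cells). In differentiated cells it called 2 higher and 0 lower at 1 h and 0 higher and 3 lower at 6 h, and in myoblasts 2 higher and 0 lower at 6 h. The median log2 fold change of the tested list genes was between -0.10 and 0.04 in the 6 comparisons, and that of all genes between -0.0074 and 0.0024. The other 30 chemokine ligands had 4 to 9 tested genes and 1 call by edgeR, Ccl11, an eosinophil chemokine in the same cluster as Ccl2. It was lower in stretched differentiated cells at 6 h, at 0.477 ± 0.122 against 0.854 ± 0.195 CPM without stretching (log2 -0.84, edgeR adjusted p = 0.0276). This call was lost without replicate 7, 8 or 10 of the non-stretched or 9 or 10 of the stretched cells. The log2 fold changes were then between -0.86 and -0.69. DESeq2 called 2 of these ligands lower and 0 higher in that comparison.

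Among the chemokine receptors, Xcr1 and Ccr10 moved at 3 h in both stages, at 7 to 63 counts in a library. Of these 4 calls of edgeR, DESeq2 made 1, that of Xcr1 in myoblasts. Xcr1 was upregulated from 0.354 ± 0.136 to 0.786 ± 0.0986 CPM in myoblasts (log2 1.14, edgeR adjusted p = 0.00299) and from 0.237 ± 0.037 to 0.368 ± 0.0298 CPM in differentiated cells (log2 0.64, adjusted p = 0.0419). The second of these was lost in 7 of the 8 fits without 1 library, all but that without non-stretched replicate 7, with adjusted p between 0.0589 and 0.107. Ccr10 was downregulated from 0.378 ± 0.143 to 0.185 ± 0.0827 CPM in myoblasts (log2 -1.07, adjusted p = 0.0373) and from 0.479 ± 0.0939 to 0.158 ± 0.0209 CPM in differentiated cells (log2 -1.60, adjusted p = 0.00118). The first of these was lost without replicate 7, 8 or 10 of the non-stretched or 7 or 9 of the stretched cells, with adjusted p between 0.0519 and 0.127. Cxcr6, the receptor of Cxcl16, rose in myoblasts at 6 h from 0.967 ± 0.103 to 1.66 ± 0.145 CPM (log2 0.80, adjusted p = 0.00112).

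Among the cytokines and their receptors, Il12a was downregulated in myoblasts at 3 h at 2 to 16 counts (log2 -1.94, edgeR adjusted p = 0.00127). Csf2rb, a shared receptor subunit, rose in myoblasts at 6 h (log2 1.62, adjusted p = 2.59e-04) and fell in differentiated cells at 3 h (log2 -1.55, adjusted p = 0.0101). It had at most 69 counts, and 19.6% of its stretches of 31 bases occur in other genes, so its level depends on how shared reads were divided. Il1rl1, the receptor of interleukin 33, stood at 6.97 ± 1.19 CPM without and 10.6 ± 0.706 CPM with stretching and so rose in differentiated cells at 3 h (log2 0.60, adjusted p = 0.00275). Its log2 fold change was between 0.52 and 0.58, under the fold limit, without replicate 9 or 10 of the non-stretched or 9 or 10 of the stretched cells. The other enzymes of prostaglandin synthesis and breakdown, 14 or 15 tested of 18, had 0 calls by edgeR and by DESeq2 in the 6 comparisons, with between 1 and 7 genes at an unadjusted p-value under 0.05. Of all genes tested, between 1386 of 15538 (differentiated cells at 1 h) and 6140 of 14813 (myoblasts at 3 h) had such a p-value. Ptgs1, the constitutive cyclooxygenase, was at 426 CPM in non-stretched myoblasts and 159 CPM in non-stretched differentiated cells, and Ptges, the inducible prostaglandin E synthase, at 0.371 and 0.11 CPM.

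For each called member, the 3 genes whose log2 CPM correlated best with it over the 24 libraries of 1 stage are named as a description, among 11393 genes in myoblasts and 11864 in differentiated cells with a mean of at least 100 counts. In myoblasts, Ccl2 was most like BC022687 (r = 0.941), Grem1 (0.925) and Usp36 (0.91), and Ccl7 most like Slco4a1 (0.947), Alkbh5 (0.931) and Grem1 (0.924). Cxcl12 was closest to Vps26a (0.96), Vash2 (0.958) and Mfsd7b (0.955), all in myoblasts. Ptgs2 was closest to Bicd2 (0.936), Fosb (0.93) and Nr4a1 (0.93), and Hpgd to Smarcc2 (0.868), Gpatch2 (0.84) and Stmn4 (0.838). In differentiated cells, Cxcl5 was most like Rgl1 (0.916), Ifi203 (0.893) and Ptpdc1 (0.889). Cxcl1 was most like Btg2 (0.889), Trib1 (0.872) and Eri1 (0.849), which became 0.722, 0.679 and 0.588 without replicate 4. The libraries share groups, experiments and depth.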

How the data were processed

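The 48 C2C12 libraries were made with a stranded mRNA kit. The authors aligned reads to the mouse genome (mm10) with STAR and quantified them with Salmon, and the deposited tables hold raw read counts per gene symbol, 1 table for each stage. Columns were matched to samples by name. In 1 case, stretched myoblast replicate 9 at 1 h, the sample label gives experiment B231 and the column B31. No other sample shares its stage, treatment, time and number, and it was taken as B31.

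Genes were filtered with filterByExpr and scaled with TMM, and each comparison was fitted on its own libraries (8 for stretching at 1 time, 24 for times, 16 for stages) in edgeR 4.0.16 (quasi-likelihood test, R 4.3.3). For stages, raw counts of both tables were joined. Log2 CPM used a prior count of 1. Called genes had a Benjamini-Hochberg adjusted p-value under 0.05 over all genes and passed a log2 limit of 0.58. Scripts were tested on simulated data. Alternatives were DESeq2 1.42.0, RLE scaling, no filter, no fold limit, all 24 libraries of a stage, the experiment as a covariate, a replicate block, values within experiments, and leaving out each library. The 10 genes and the wider lists were chosen with earlier results of these data known. Named from the wider lists are genes called in a stretch comparison, at most 4 in a list, and the receptors of the 10 genes and of prostaglandin E2, of which Ptger1 is not reported here. Counting used strand only as far as the kit is stranded, and how the authors set it is not given in the sources used here. Exons and 3′ untranslated regions came from GENCODE vM21.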

Additional observations from a re-analysis of the deposited data

Results flagged for a closer look

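In 8 of 120 groups of 4 libraries (10 genes in 12 groups), 1 library lay so far from the others that its gap to the nearest one, divided by the range of the group, was above Dixon's 95% critical value for 4 samples. Chance gives about 1 in 20 such groups. Of the 8, 4 were stretched replicate 4 of the differentiated cells at 1 h, with 419.6 CPM for Ptgs2, 3.091 CPM for Il6, 287.1 CPM for Csf1 and 26.39 CPM for Cxcl12, of which the last was low. In the non-stretched differentiated cells at 1 h, replicate 9 was high for Cxcl1 (1.558 CPM) and Il6 (0.5787 CPM, 39 counts), and replicate 8 for Ccl7 (2.289 CPM). Non-stretched replicate 9 of the myoblasts at 3 h was low for Cx3cl1, at 42.17 CPM against 43.21 CPM for the next library.

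The effect of stretching differed between times or stages by the interaction test in 10 cases. In myoblasts at 3 h against 1 h, the log2 differences of effects were 0.66 for Ccl2 and -0.78 for Ptgs2. At 6 h against 1 h they were 0.77 for Ccl7, 0.71 for Cxcl12 and -0.70 for Ptgs2. In differentiated cells, Cxcl5 had -0.99 at 3 h against 1 h and -0.82 at 6 h against 1 h, where Il6 had -2.43 and Ptgs2 had -2.18. Between differentiated cells and myoblasts at 6 h, Ccl7 had -0.71.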

How the results depend on the processing

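Counts of members called moved by more than 1.5 times in these cases. Without the fold limit, 2 were higher in myoblasts at 1 h, 6 higher at 3 h and 2 lower at 6 h. In differentiated cells, 4 were then higher at 3 h and 2 higher at 6 h. At 6 h against 1 h, 3 had lower (more negative) effects in myoblasts and 1 had a higher effect in differentiated cells. With all 24 libraries of a stage, 1 was lower in myoblasts at 1 h, and in differentiated cells 2 were higher at 1 h and 1 higher and 1 lower at 3 h. With no filter, 1 was higher in differentiated cells at 1 h. With the experiment as a covariate, 1 was higher in differentiated cells at 1 h and 3 had lower effects at 3 h against 1 h. DESeq2 gave 0 lower at 6 h, with no adjusted p-value for Hpgd, and 2 lower effects at 3 h against 1 h in differentiated cells. The cause was not tested.

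Stretched and non-stretched libraries with the same replicate number shared little of their deviations over all genes tested. The correlation was over 0.1 in 6 of 23 pairs (range -0.0441 to 0.153). This does not show that the libraries were unpaired, or that single genes did not vary by experiment. With the replicate block, 1 member was higher at 1 h and 1 lower at 3 h, both in differentiated cells. There, 3 had lower (more negative) effects at 3 h against 1 h. Xcr1 in differentiated cells at 3 h lost its call with the block (edgeR adjusted p = 0.0709), with no filter (0.123) and with all 24 libraries (0.203), and Ccl11 at 6 h with all 24 (0.0838).

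Uncalled differences changed sign for Cxcl12 in differentiated cells at 1 h (0.017 with the covariate, 0.048 with the block), for Csf1 at 3 h against 1 h (0.064 and 0.065) and for Ccl2 at 6 h against 1 h (0.25 and 0.26) in differentiated cells. Between stages at 1 h they did so for Cxcl12 (0.031 with the block) and Csf1 (0.0013 with DESeq2, 6.775e-04 with RLE scaling, 0.0064 with no filter).

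Leaving out each library gave 1 to 2 members higher in myoblasts at 3 h and 0 to 1 lower at 6 h. In differentiated cells it gave 0 to 1 higher at 1 h, 1 to 2 higher and 0 to 2 lower at 3 h, and 0 to 1 higher and 0 to 2 lower at 6 h. Lower (more negative) effects numbered 0 to 3 at 3 h and 1 to 4 at 6 h against 1 h, and 0 to 1 between stages at 6 h. Differences whose sign changed ranged from -0.086 to 0.16 for Cxcl5 and -0.068 to 0.078 for Cxcl12 in myoblasts at 1 h, -0.021 to 0.13 for Cxcl1 at 3 h, and -0.13 to 0.23 for Cxcl1 and -0.14 to 0.20 for Hpgd at 6 h against 1 h. In differentiated cells they ranged from -0.026 to 0.12 for Ccl7 at 1 h, -0.28 to 0.079 for Cxcl1 at 6 h, -0.16 to 0.10 for Csf1 and -0.44 to 0.011 for Hpgd at 3 h against 1 h, and -0.16 to 0.29 for Ccl2 and -0.22 to 0.040 for Csf1 at 6 h against 1 h. Between stages at 1 h they were -2.3e-04 to 0.46 for Ccl2, -0.10 to 0.028 for Cx3cl1 and -0.19 to 0.068 for Csf1. Depth limits Il6 in myoblasts and Hpgd most, with at most 16 and 66 counts in a library.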
